A study of Mus musculus with 76 samples.

Results

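The oligodendrocyte lineage genes described here are the transcription factor genes Olig1, Olig2, Sox10 and Nkx6-2, the precursor surface genes Pdgfra and Cspg4, and the differentiation and myelin genes Bcas1, Mbp and Mog. These 9 genes, of 56923 in each count file, were chosen by name as textbook markers of the lineage, and all 9 were found in the files. The study compared developing diencephalon of C57BL/6J mouse embryos homozygous for hs754-humanized, in which the human sequence of an enhancer replaces its mouse ortholog, with that of embryos from homozygous wild type crosses. Stages are given as embryonic days, E11.5 and E17.5. A replicate is the pooled tissue of littermates, 6 embryos for the earlier stage and 3 for the later. RNA-seq gave 16 libraries, 4 per genotype and time point, and ChIP-seq gave 36 peak lists. For each genotype, H3K27ac, H3K4me3 and H3K27me3 had 2 E11.5 lists and 3 E17.5 lists each, whereas the 3 CTCF lists were all from E17.5. The edit is in an enhancer and not in a gene, so no targeted transcript could be read as a check of the labels.

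Oligodendrocytes make the myelin of the central nervous system. Their precursors arise from ventricular zone progenitors that express OLIG2, come to express SOX10 and the platelet-derived growth factor receptor PDGFRA, and later, mostly after birth in the forebrain, switch on the genes of compact myelin. OLIG2 also acts before that step, in progenitors that give neurons. H3K27ac marks active promoters and enhancers, H3K4me3 marks promoters, and H3K27me3 is laid down by Polycomb complexes and is associated with repressed developmental genes. The H3K27ac antibody lot also bound acetylated lysine 5 of histone H2B according to the methods of the study, so the H3K27ac peaks may hold both marks.

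Each RNA library held 16414369 to 24272569 counts on genes, and 96.0% to 96.5% of strand-assigned counts fell in the column of the library's own orientation. Levels are given as CPM (counts scaled to library size) after TMM scaling. Changes are log2 fold changes with their standard errors (SE) from edgeR's quasi-likelihood test, with adjusted p (Benjamini-Hochberg over all genes tested) called under 0.05. The E17.5 wild type replicate 1 stood apart. It had the highest level of 7 members and the lowest of Pdgfra and Mog among the 8 E17.5 libraries, so several results that rest on it are given without it as well. In bulk tissue, fewer cells of a type and less RNA per cell cannot be told apart.

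Across stages in wild type diencephalon, 8 of the 9 members were called. The calls were 7 higher and 1 lower at E17.5, against 55.7% of all 18583 genes tested, 29% higher and 26.7% lower. One of the higher calls is Mog, whose reads lay on the opposite strand, and on counts of the gene's own strand 7 members were called in each genotype. The median change of the members was 0.90 and that of all genes tested was -0.01. Olig1, Sox10 and Cspg4 rose by the most among members whose reads lay on their own strand, Pdgfra, Bcas1 and Mbp rose by less than 1 on the log2 scale, and Nkx6-2 fell. In humanized diencephalon 8 members were also called, 6 higher and 2 lower, against 77.7% of the 18781 genes tested, 38.2% higher and 39.5% lower. The shares of members called are to be read against these high backgrounds. The 4 E17.5 and 4 E11.5 libraries did not overlap for 8 members in wild type, against 51.9% of the 16629 genes with a mean of at least 1 CPM, and for 7 in humanized samples, against 74.2%. Both counts include Mog, whose reads lay on the opposite strand.

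**Figure D1:**
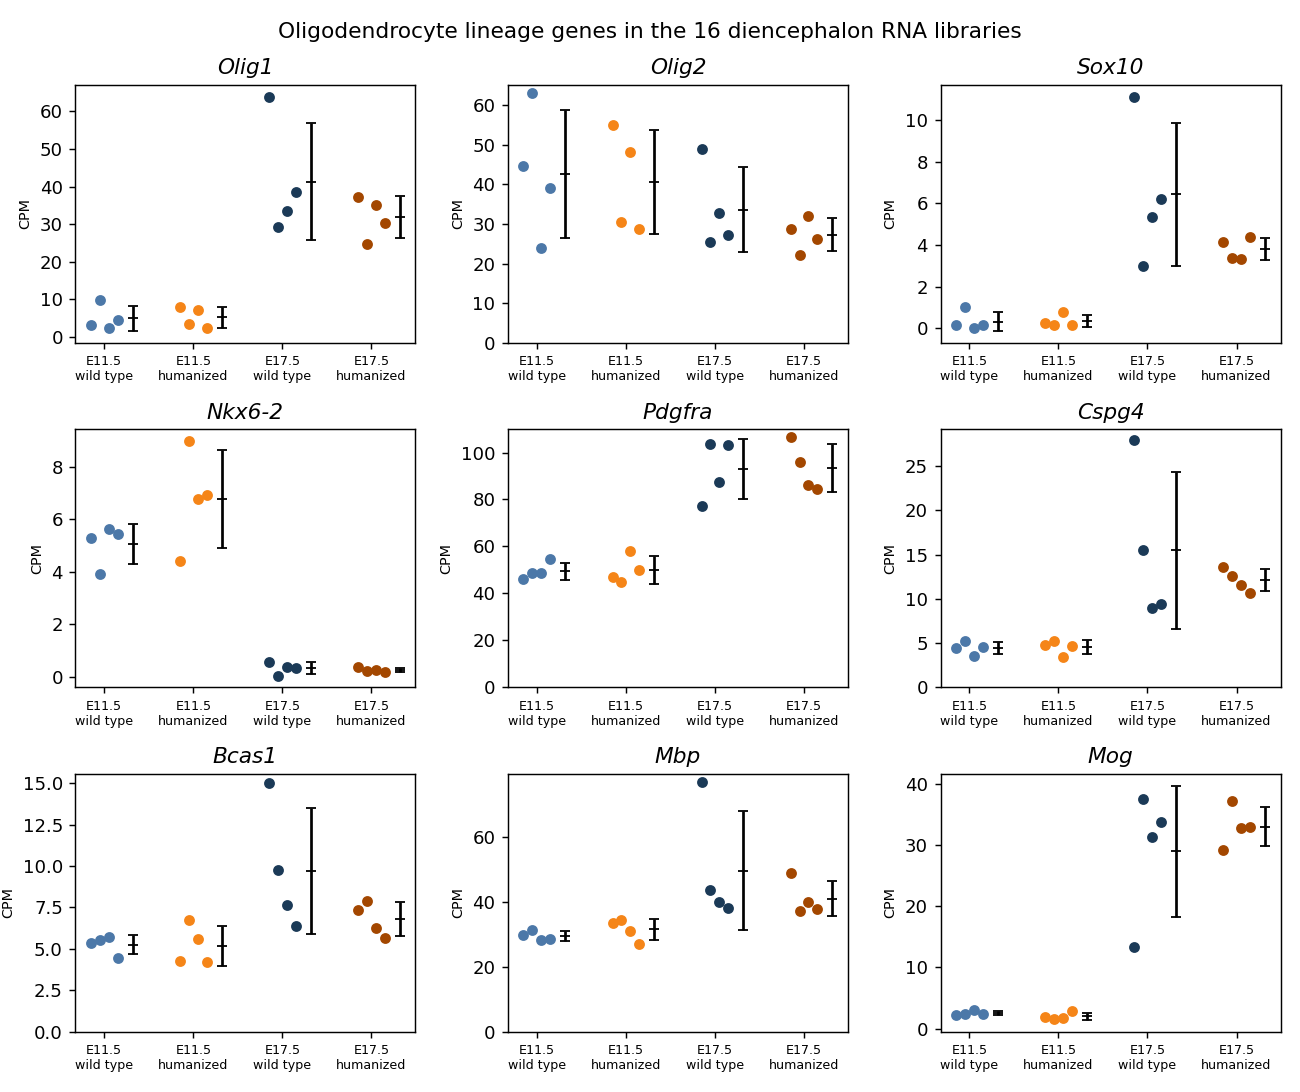
Level of each member in CPM (vertical axes, linear) in the 16 RNA libraries, 1 point per library, with the mean and SD of each group of 4 at its right. Olig1, Sox10 and Cspg4 sit higher and Nkx6-2 lower in all E17.5 libraries than in the E11.5 libraries, and the E17.5 wild type replicate 1 is the highest E17.5 point in 7 panels.

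OLIG1 and OLIG2 are basic helix-loop-helix factors encoded side by side on chromosome 16. Olig1 (ENSMUSG00000046160.7, GRCm39 chr16:91066660-91068821, plus strand) had 3.13, 9.81, 2.43 and 4.42 CPM in E11.5 wild type replicates 1 to 4, and 63.9, 29.3, 33.5 and 38.6 CPM at E17.5. Every E17.5 library lay above every E11.5 library. The wild type change was 3.06 ± 0.44 (SE, edgeR adjusted p = 0.000176). In humanized samples Olig1 went from 7.98, 3.36, 7.19 and 2.38 CPM to 37.3, 24.8, 35.0 and 30.5 CPM, a change of 2.61 ± 0.32 (SE, edgeR adjusted p = 1.02e-05).

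Olig2 (ENSMUSG00000039830.10, chr16:91019435-91025567, plus strand) was not called between stages in wild type. It had 44.7, 63.0, 23.9 and 39.01 CPM in E11.5 wild type and 49.0, 25.3, 32.8 and 27.1 CPM in E17.5 wild type replicates 1 to 4, and the stages overlapped. The change of -0.35 ± 0.30 (SE) was not called in wild type (edgeR adjusted p = 0.343). Leaving out single libraries moved it both ways. Without the E17.5 wild type replicate 1 it was -0.61 and was called lower (edgeR adjusted p = 0.0468), and without the E11.5 wild type replicate 2 it was -0.10 (edgeR adjusted p = 0.802). Humanized Olig2 was 55.1, 30.4, 48.1 and 28.8 CPM at E11.5, then 28.7, 22.2, 32.1 and 26.1 CPM at E17.5. It was called lower there at -0.58 ± 0.20 (SE, edgeR adjusted p = 0.0198), although the stages still overlapped. That call was lost without the E11.5 humanized replicate 1 (adjusted p = 0.0557) and without the E17.5 humanized replicates 2 (0.0606) or 4 (0.0529), and in a fit of all 16 libraries (0.0768).

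SOX10 is a factor of the SRY-box family that is needed for oligodendrocyte differentiation and also acts in neural crest. Sox10 (ENSMUSG00000033006.11, chr15:79039108-79049469, minus strand) had 3, 19, 0 and 4 counts in the E11.5 wild type libraries and 213, 55, 108 and 148 at E17.5. In CPM these were 0.154, 1.01, 0 and 0.162, against 11.1, 2.99, 5.37 and 6.24. The 4 E11.5 humanized libraries held 5, 4, 15 and 4 counts and the E17.5 libraries 78, 56, 59 and 69. Sox10 rose by 4.30 ± 0.75 (SE, edgeR adjusted p = 0.00066) in wild type and by 3.50 ± 0.40 (SE, edgeR adjusted p = 5.45e-06) in humanized samples, with no overlap between stages in either. At E11.5, most libraries held so few Sox10 reads that the size of the fold rests on a handful of counts. Without the E11.5 wild type replicate 2, which had 19 of them, the wild type change was 5.81, and without the E11.5 humanized replicate 3 the humanized change was 4.21.

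Markers of neural crest and the Schwann cell lineage, which also use Sox10, summed to 133 to 207 CPM in E11.5 wild type and to 36.2 to 61.5 CPM at E17.5. All 12 of that list were found, and Cdh19 was at 0 in every E11.5 wild type library and Foxd3 in every E17.5 library. Of 6 tested, 1 was called higher and 3 lower, against 29% and 26.7% of all genes tested. The part of these cells in the Sox10 values was not tested.

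Nkx6-2 was called lower in both genotypes. It encodes a homeodomain factor of ventral progenitors and of oligodendrocytes (ENSMUSG00000041309.18, chr7:139159292-139162718, minus strand). The E11.5 wild type libraries had 5.28, 3.93, 5.61 and 5.43 CPM, and the E17.5 libraries 0.575, 0.0544, 0.398 and 0.337 CPM, or 11, 1, 8 and 8 counts. The change was -3.87 ± 0.43 (SE, edgeR adjusted p = 2.83e-05). In humanized samples it went from 4.43, 8.97, 6.78 and 6.93 CPM to 0.373, 0.243, 0.281 and 0.191 CPM, a change of -4.60 ± 0.32 (SE, edgeR adjusted p = 7.25e-08). No E17.5 library reached the level of any E11.5 library.

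PDGFRA is the receptor through which platelet-derived growth factor A acts on precursors. Pdgfra (ENSMUSG00000029231.16, chr5:75311994-75358876, plus strand) had 46.1, 48.5, 48.7 and 54.5 CPM in E11.5 wild type and 77.4, 103.5, 87.6 and 103.0 CPM in E17.5 wild type. It rose by 0.90 ± 0.17 (SE, edgeR adjusted p = 0.00109). Humanized samples gave 47.0, 44.8, 58.1 and 50.0 CPM and then 106.7, 95.8, 86.4 and 84.4 CPM, a rise of 0.89 ± 0.13 (SE, edgeR adjusted p = 3.64e-05). Stages did not overlap in either genotype.

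Pdgfra is also expressed by mesenchyme and meningeal fibroblasts. The 11 markers of that list, Pdgfra among them, summed to 1492 to 2006 CPM in E11.5 wild type and to 559 to 837 CPM at E17.5. Of these markers, 7 were called lower and 3, Pdgfra included, higher, against 26.7% and 29% of all genes tested. Aldh1a2 (1.24 ± 0.58 to 16.6 ± 4.1 CPM, SD) and Dcn (11.1 ± 1.8 to 30.1 ± 4.4 CPM) also had higher wild type means at E17.5. None of the 11 markers was at 0 in any group. The part of these cells in the Pdgfra values was not tested. Pdgfa, which encodes a ligand of the receptor, rose by 3.47 ± 0.25 (SE, edgeR adjusted p = 1.96e-06), from 3.83 ± 0.45 CPM to 42.6 ± 13.5 CPM (SD, n = 4 libraries each).

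CSPG4 is the proteoglycan known as the antigen of glial precursors, and is also made by pericytes. Cspg4 (ENSMUSG00000032911.7, chr9:56772317-56807187, plus strand) had 4.46, 5.20, 3.49 and 4.58 CPM in E11.5 wild type and 27.9, 15.6, 8.96 and 9.44 CPM at E17.5. Replicate 1 was well above the others at E17.5. The rise was 1.79 ± 0.36 (SE, edgeR adjusted p = 0.00166), and 1.33 (edgeR adjusted p = 0.000136) without that library. In humanized samples Cspg4 rose by 1.40 ± 0.17 (SE, edgeR adjusted p = 8.53e-06), from 4.82, 5.25, 3.42 and 4.71 CPM to 13.6, 12.6, 11.53 and 10.7 CPM. The 10 pericyte and mural cell markers summed to 326 to 411 CPM at E11.5 and 330 to 360 CPM at E17.5 in wild type, with none at 0. Of these markers, 4 were called higher and 3 lower, against 29% and 26.7% of all genes tested. The part of these cells in the Cspg4 values was not tested.

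BCAS1 marks oligodendrocytes that are beginning to differentiate. Bcas1 (ENSMUSG00000013523.14, chr2:170188911-170269765, minus strand) had 5.38, 5.52, 5.72 and 4.42 CPM in E11.5 wild type and 15, 9.73, 7.66 and 6.37 CPM at E17.5. It rose by 0.87 ± 0.27 (SE, edgeR adjusted p = 0.0195). Without the E17.5 wild type replicate 1, which held the highest value, the rise was 0.57 (adjusted p = 0.0147). The call was lost without the E11.5 wild type replicate 1 (adjusted p = 0.0515) or 4 (0.0684). In humanized samples the values were 4.28, 6.73, 5.59 and 4.18 CPM at E11.5, then 7.36, 7.89, 6.24 and 5.67 CPM at E17.5, the stages overlapped, and the change of 0.38 ± 0.19 (SE, edgeR adjusted p = 0.0901) was not called. It was called without the E11.5 humanized replicate 2 (0.49, adjusted p = 0.0424). Bcas1 has antisense genes within it, and 2.76% to 4.04% of its strand-assigned counts were on the other strand.

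MBP is the major protein of the cytoplasmic face of compact myelin, and the same gene gives the golli proteins from transcripts that start far upstream. Mbp (ENSMUSG00000041607.18, chr18:82493207-82603763, plus strand) was already at 29.6, 31.4, 28.1 and 28.5 CPM in E11.5 wild type, and had 76.8, 43.7, 39.9 and 38.0 CPM at E17.5. It rose by 0.74 ± 0.24 (SE, edgeR adjusted p = 0.0209), and by 0.44 (adjusted p = 0.00435) without the E17.5 wild type replicate 1. The call was lost without the E11.5 wild type replicate 1 (adjusted p = 0.0603), 3 (0.0568) or 4 (0.0652).

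In humanized samples Mbp went from 33.5, 34.5, 30.99 and 27.1 CPM to 48.9, 37.2, 40.0 and 37.8 CPM and rose by 0.37 ± 0.12 (SE, edgeR adjusted p = 0.0159). That call was lost without a filter on low counts (adjusted p = 0.0862), with all 16 libraries in the fit (0.0871), and without the E11.5 humanized replicates 3 (0.0522) or 4 (0.0526) or the E17.5 humanized replicate 1 (0.0555). The counts are per gene and do not separate golli transcripts from those of classic myelin basic protein.

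MOG is a protein of the outermost surface of myelin and a late marker of mature oligodendrocytes. The count assigned to Mog (ENSMUSG00000076439.13, chr17:37321521-37334350, minus strand) was called higher at E17.5, by 3.52 ± 0.33 (SE, edgeR adjusted p = 9.43e-06) in wild type and by 4.02 ± 0.21 (SE, edgeR adjusted p = 8.02e-09) in humanized samples. These reads were not on the strand of Mog. Its own strand held 3, 0, 0 and 0 reads in E11.5 wild type, 1, 0, 0 and 0 in E11.5 humanized, 0, 3, 5 and 5 in E17.5 wild type, and 4, 1, 10 and 0 in E17.5 humanized libraries. The other strand held 266, 739, 647 and 829 reads in the E17.5 wild type libraries. Summed by group, 98.6% to 99.5% of the strand-assigned counts of Mog were on the other strand, against 0% to 6.67% for the remaining members. On the column of its own strand Mog was too low to be tested, so no change of Mog itself was measured.

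**Figure D2:**
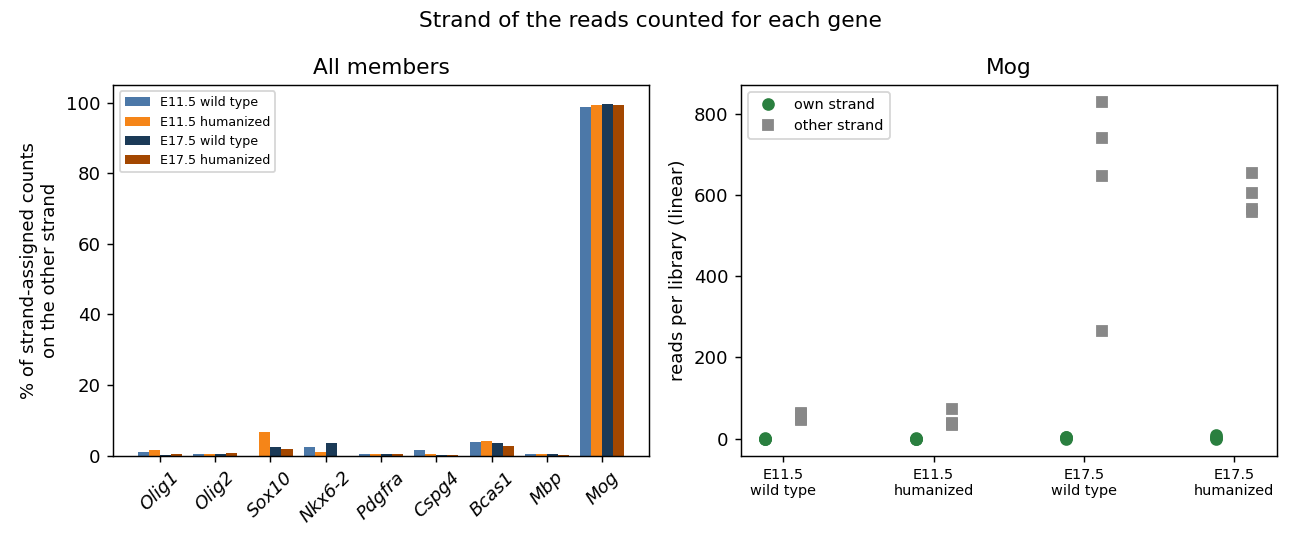
Left, share of strand-assigned counts on the strand opposite to the gene, in percent, for each member and group (summed over 4 libraries). Right, reads of Mog per library on its own strand (circles) and on the other strand (squares). Mog alone has nearly all of its reads on the other strand, and its own strand holds at most 10 reads in a library.

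Zfp57, named here after its values were seen, encodes a zinc finger protein that maintains imprints and lies on the plus strand at chr17:37298936-37326192, where 4672 bases overlap the far end of Mog. It had 87.0, 64.7, 91.0 and 73.6 CPM in E11.5 wild type and 97.6, 234.4, 255.3 and 251.3 CPM at E17.5, and rose by 1.39 ± 0.29 (SE, edgeR adjusted p = 0.00216). The E17.5 wild type replicate 1 was the lowest of the 8 E17.5 libraries for both genes. Reads on the other strand of Mog amounted to 2.404% to 4.28% of the reads of Zfp57 at E11.5 and to 12.1% to 17.3% at E17.5. Which transcript these reads come from was not tested.

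**Figure D3:**
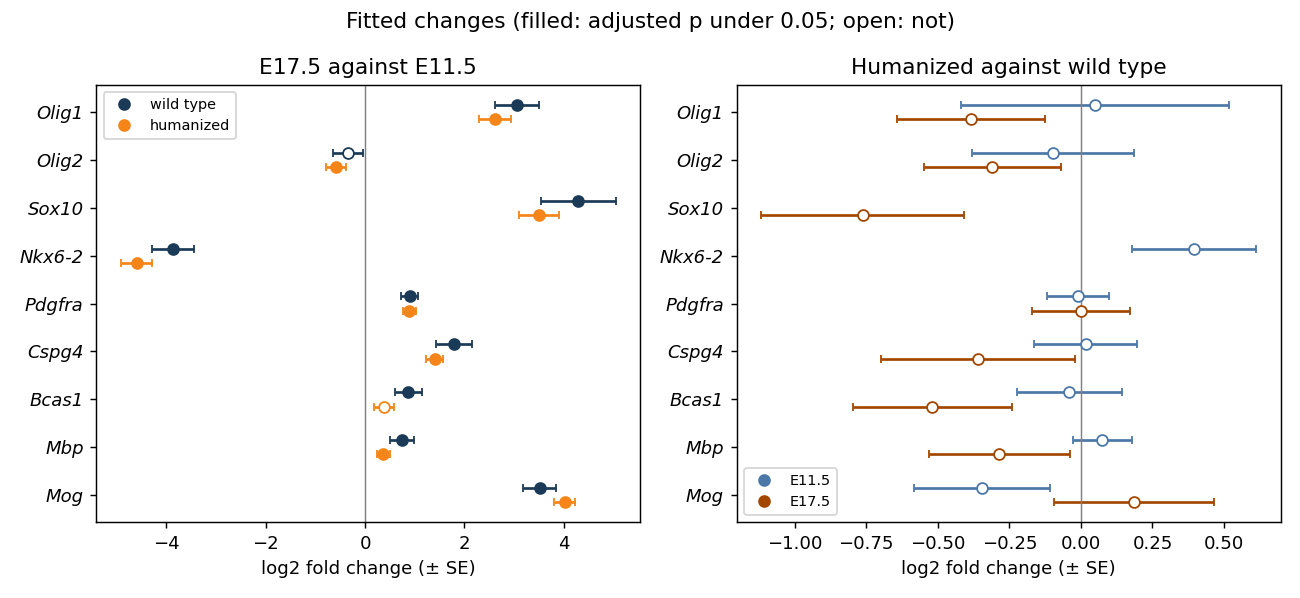
log2 fold change ± SE of each member (horizontal axes) between stages in each genotype (left) and between genotypes at each stage (right). Filled points passed an adjusted p of 0.05 and open points did not. All points between genotypes are open, and Sox10 at E11.5 and Nkx6-2 at E17.5 were too low to be tested.

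Between genotypes, no member was called at either stage. At E11.5, 0 of 8 members tested were called, against 0% of 17816 genes (1058 genes at an unadjusted p under 0.05, and 2 called by DESeq2). At E17.5, 0 of 8 were called, against 0% of 18763 genes (207 at an unadjusted p under 0.05, and 1 called by DESeq2). Leaving out Mog for its strand, the member changes ran from -0.10 (Olig2) to 0.40 (Nkx6-2) at E11.5, and from -0.76 (Sox10) to 0.0011 (Pdgfra) at E17.5. Genotypes overlapped for every member at both stages, where 2.42% of genes at E11.5 and 1.12% at E17.5 did not overlap. At E17.5 the deviations of same-numbered libraries of the 2 genotypes had correlations of 0.129 to 0.679, and what a number shares is not known. Humanized Bcas1 and Olig2 were lower in each of these 4 pairs, but the share of all genes lower in every pair was not counted. With the replicate number as a block their differences were -0.46 and -0.27 and were not called (edgeR adjusted p = 0.599 for both).

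The E17.5 difference in Sox10 had the smallest unadjusted p of the members, at -0.76 ± 0.35 (SE, edgeR adjusted p = 0.808), with 6.43 ± 3.42 CPM in wild type and 3.82 ± 0.54 CPM in humanized samples (SD, n = 4 each). It was -0.37 without the E17.5 wild type replicate 1. The E17.5 values of Bcas1 (-0.52), Olig1 (-0.38), Cspg4 (-0.36), Olig2 (-0.31) and Mbp (-0.29) were also below 0. Without that library they were -0.22 for Bcas1, -0.0903 for Olig1, -0.0655 for Olig2, 0.10 for Cspg4 and 0.01 for Mbp, so each shrank toward or past 0. The change from E11.5 to E17.5 did not differ between genotypes for any of the 9 members (0 called, against 0% of 20234 genes, with 1610 at an unadjusted p under 0.05 and 0 called by DESeq2). A p that misses the threshold does not show that the genotypes are alike, and for Sox10 the interaction was -0.79 ± 0.94 (SE, edgeR adjusted p = 0.635).

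Levels can be compared between genes only per length. The lengths used were those of all annotated exons of a gene, from a different annotation release than the counts. They were 2162 bp for Olig1, against 9745 bp for Mbp, 11964 bp for Cspg4 and 12310 bp for Pdgfra. The orders at both stages depend in part on these lengths, and how they would change with other lengths was not tested. Per kilobase of annotated exon, E11.5 wild type was led by Olig2 at 10.3 ± 3.9 CPM per kilobase (SD, n = 4 here and below). Pdgfra (4.02 ± 0.29), Mbp (3.02 ± 0.15), Nkx6-2 (2.65 ± 0.40), Olig1 (2.29 ± 1.55) and Bcas1 (1.39 ± 0.15) followed, and Cspg4 (0.371 ± 0.059) and Sox10 (0.0994 ± 0.137) were lowest. Mbp, Nkx6-2 and Olig1 lay within each other's spread.

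At E17.5 in wild type, Olig1 led with 19.1 ± 7.2 CPM per kilobase. Olig2 (8.11 ± 2.60) and Pdgfra (7.55 ± 1.03) overlapped in spread, as did Mbp (5.09 ± 1.88) and Bcas1 (2.57 ± 1.01). Bcas1, Sox10 (1.93 ± 1.03) and Cspg4 (1.29 ± 0.74) did not differ from one another beyond their spread. Nkx6-2 was lowest, at 0.178 ± 0.113. Mog is left out of both orders because its reads were on the other strand.

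The wider programme was followed in 4 lists, whose counts are to be read against the 29% of all genes tested that were called higher and the 26.7% called lower. Of 23 lineage transcription factors, all tested, 4 were called higher and 13 lower at E17.5 in wild type, with a median change of -0.89. Id4, an inhibitor of DNA binding, rose by 2.41 ± 0.18 (SE), Sox8 by 3.47 ± 0.37, Zfp488 by 4.79 ± 0.57 and Sox5 by 0.93 ± 0.22. Sox8 is the close relative of Sox10, and Zfp488 is an oligodendrocyte zinc finger gene. Those that fell included Olig3 (-6.31 ± 0.27), the histone deacetylase gene Hdac1 (-1.87 ± 0.17), the Notch target Hes5 (-3.10 ± 0.28) and Id2 (-1.94 ± 0.19). Many of these act in progenitors of neurons as well.

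Of 26 precursor surface and signalling genes, 23 were tested, 18 were called higher and 4 lower, and the median change was 1.32. Besides Pdgfa, the named risers were Tnr (5.21 ± 0.38, SE), which encodes the matrix protein tenascin-R, Lhfpl3 (6.09 ± 0.53), Cspg5 (2.77 ± 0.26) and Nxph1 (3.70 ± 0.37). The genes that fell were the Notch ligand gene Dll3 (-3.36 ± 0.27), C1ql1 (-1.42 ± 0.29), Lpar1 (-0.59 ± 0.17) and Pdgfc (-0.57 ± 0.19). With the replicate number as a block, 2 rather than 4 were called lower.

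Of 17 genes of committed precursors and newly formed oligodendrocytes, 15 were tested, 5 were called higher and 4 lower, shares near those of all genes, with a median change of 0.46. Gpr17, a receptor of committed precursors, rose by 2.45 ± 0.28 (SE), Gpr37 by 3.22 ± 0.27, Enpp2 by 2.17 ± 0.23, Itpr2 by 1.37 ± 0.22 and Nfasc by 0.60 ± 0.16. Cemip2 (-2.22 ± 0.16), Bmp4 (-1.20 ± 0.27), Kif19a (-0.88 ± 0.26) and Tns3 (-0.55 ± 0.18) fell, and 42.0% of the strand-assigned counts of Kif19a were on the other strand. Neu4 was at 0 in every library.

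Of 29 myelin and mature oligodendrocyte genes, 28 were found and 17 tested. The calls were 11 higher and 3 lower, with a median change of 1.09 over those tested, while 11 genes, among them Mobp and Opalin, were too low to test. Cldn11, a tight junction gene of myelin, rose by 2.31 ± 0.25 (SE), Grb14 by 3.03 ± 0.22, Omg by 2.89 ± 0.33, Mag (myelin-associated glycoprotein) by 3.00 ± 0.40 and Gal3st1, an enzyme of sulfatide synthesis, by 4.53 ± 0.67. Mag was still low, at 0.487 ± 0.102 CPM at E11.5 and 3.96 ± 2.06 CPM at E17.5 (SD, n = 4). Ppp1r14a (-3.64 ± 0.30), Car2 (-2.20 ± 0.22) and Cntn2 (-1.74 ± 0.30) fell. The summed level of the list was 503 to 635 CPM at E11.5 and 546, 552 and 543 CPM in E17.5 wild type replicates 2 to 4, against 1066 CPM in replicate 1. In a fit of all 16 libraries, 5 rather than 3 were called lower. All genes in these 4 paragraphs given as higher or lower had an edgeR adjusted p of at most 0.0239.

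The pattern of Sox10 among the 8 E17.5 libraries, with the mean of each genotype removed, was most like that of Rsu1 (Pearson r = 0.991), Jakmip1 (0.990), Pxmp4 (0.986), Septin1 (0.984) and Pex11a (0.979), over 8 libraries and 13686 protein-coding genes. Of the members, Olig1 (r = 0.855), Olig2 (0.757) and Mbp (0.680) followed Sox10 most closely, and 885 genes had a higher r than Olig1. Cspg4 (0.459) and Bcas1 (0.407) followed it less, and Pdgfra (-0.596) and the reads counted for Mog (-0.873) ran opposite. These points share the E17.5 wild type replicate 1. Without it, r was 0.963 to 0.984 for the 5 nearest genes, 0.658 for Olig1, 0.438 for Olig2, 0.131 for Mbp, -0.359 for Cspg4, -0.382 for Bcas1, -0.266 for Pdgfra and -0.694 for Mog.

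Promoters were then read in the peak lists. A promoter was taken as 1000 bp on either side of any annotated protein-coding transcript start, and the peak with the highest -log10 q was used where several met it. In wild type, 7 of 9 members had an H3K27me3 promoter peak in every list at each stage, against 21.4% of 21581 protein-coding genes at E11.5 and 21.6% at E17.5. The exceptions were Bcas1 and Mog. For H3K4me3 it was 7 of 9 at E11.5 (65.2% of genes), then 8 of 9 at E17.5 (65.4%), and for H3K27ac 3 of 9 at E11.5 (49.4%), then 7 of 9 at E17.5 (59.1%).

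H3K4me3 and H3K27me3 occurred together on 6 member promoters at E11.5, those of Olig1, Olig2, Nkx6-2, Pdgfra, Cspg4 and Mbp, against 19.7% of genes. At E17.5 Sox10 joined them to make 7, against 18.8%. Bulk tissue does not show whether both marks sat on the same chromosomes or in different cells. Olig1, Sox10, Pdgfra and Cspg4 had no H3K27ac promoter peak in either E11.5 list and one in all 3 E17.5 lists. The share of all genes with this pattern was not counted, so it is not known whether the gain is particular to these members. The E17.5 H3K27ac lists were longer, with 62720 to 77419 peaks against 32418 and 36150. With the 32418 strongest peaks of every list, 3 members were marked at E11.5 (49.1% of genes) and 6 at E17.5 (54.8%), Cspg4 being lost.

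**Figure D4:**
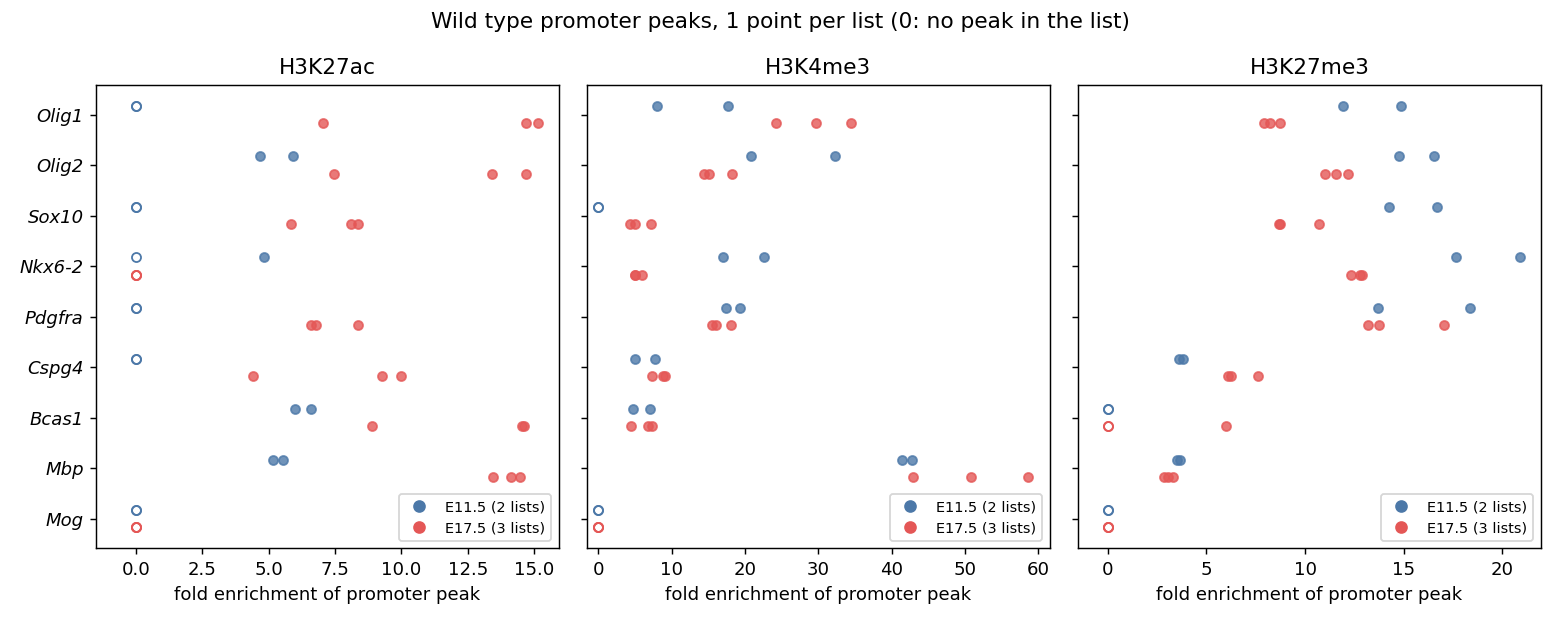
Fold enrichment over background of the strongest promoter peak of each member (horizontal axes) in each wild type list, 2 at E11.5 and 3 at E17.5. Open points at 0 are lists with no promoter peak. H3K27ac points of Olig1, Sox10, Pdgfra and Cspg4 leave 0 at E17.5, H3K4me3 of Nkx6-2 is lower at E17.5, and Mog has no peak of any of the 3 marks.

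The promoter sequences that bear on this contrast are those just upstream of the canonical starts of Olig1, Olig2 and Cspg4, which carried H3K4me3 and H3K27me3 together, and of Bcas1 and Mog, which carried no peak at those starts. Each is given for its 300 upstream bases in GRCm39, 5′ to 3′ on the strand of the gene, with every CpG dinucleotide in capitals.
Olig1, chr16:91066360-91066659, plus strand: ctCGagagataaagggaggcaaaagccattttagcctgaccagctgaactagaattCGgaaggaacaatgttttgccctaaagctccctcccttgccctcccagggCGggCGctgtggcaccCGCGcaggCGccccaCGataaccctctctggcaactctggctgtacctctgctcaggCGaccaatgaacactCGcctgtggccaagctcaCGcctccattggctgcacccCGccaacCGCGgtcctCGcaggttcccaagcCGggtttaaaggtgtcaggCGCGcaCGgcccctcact
Olig2, chr16:91021998-91022297, plus strand: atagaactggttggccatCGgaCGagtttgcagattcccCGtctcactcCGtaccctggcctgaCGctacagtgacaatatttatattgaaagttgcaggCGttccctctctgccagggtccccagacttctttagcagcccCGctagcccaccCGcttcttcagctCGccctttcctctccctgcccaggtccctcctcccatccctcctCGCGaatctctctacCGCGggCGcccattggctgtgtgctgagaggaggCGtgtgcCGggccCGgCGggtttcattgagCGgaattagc
Cspg4, chr9:56772017-56772316, plus strand: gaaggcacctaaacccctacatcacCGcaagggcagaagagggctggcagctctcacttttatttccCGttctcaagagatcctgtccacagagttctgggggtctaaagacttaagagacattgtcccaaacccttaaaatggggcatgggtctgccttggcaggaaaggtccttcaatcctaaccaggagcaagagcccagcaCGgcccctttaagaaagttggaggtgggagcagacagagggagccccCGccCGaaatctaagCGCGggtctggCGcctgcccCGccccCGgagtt
Bcas1, chr2:170269766-170270065, minus strand: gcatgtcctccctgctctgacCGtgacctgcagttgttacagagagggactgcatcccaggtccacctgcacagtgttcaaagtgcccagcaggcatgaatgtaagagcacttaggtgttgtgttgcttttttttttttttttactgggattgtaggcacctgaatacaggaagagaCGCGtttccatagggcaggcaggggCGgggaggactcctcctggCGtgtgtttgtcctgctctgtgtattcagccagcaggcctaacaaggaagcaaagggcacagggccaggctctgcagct
Mog, chr17:37334351-37334650, minus strand: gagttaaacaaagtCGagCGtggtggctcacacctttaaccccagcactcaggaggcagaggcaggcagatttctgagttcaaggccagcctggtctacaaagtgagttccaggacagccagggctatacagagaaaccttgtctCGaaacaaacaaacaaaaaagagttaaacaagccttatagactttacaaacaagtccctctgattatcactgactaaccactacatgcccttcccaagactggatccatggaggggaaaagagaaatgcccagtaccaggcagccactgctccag

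These windows held 19 CpGs for Olig1, 19 for Olig2, 10 for Cspg4, 5 for Bcas1 and 3 for Mog. The median over 21580 protein-coding genes was 9, with quartiles of 3 and 17. Nkx6-2 had 28, more than 91.7% of genes, while Sox10 and Pdgfra, both under H3K27me3, had only 5 and 4. The canonical start of Mbp, which met no peak of any mark, had 15, and its marked upstream start 13, so the count did not separate marked from unmarked starts among the members. At E17.5 the median was 12 CpGs for genes with both H3K4me3 and H3K27me3, 15 for genes with H3K4me3 alone and 2 for genes with neither.

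At Olig1, H3K4me3 fold enrichment was 17.7 and 8.04 at E11.5, then 29.8, 34.5 and 24.2 at E17.5, so every E17.5 list was higher. H3K27me3 went the other way, from 14.8 and 11.9 to 8.72, 7.92 and 8.23. H3K27ac was absent from both E11.5 lists and 7.04, 14.7 and 15.2 at E17.5, in peaks that ran over the gene itself.

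At Olig2, H3K4me3 was lower at E17.5, with 18.2, 14.4 and 15.1 against 20.8 and 32.3 at E11.5, and H3K27me3 was also lower, with 11.6, 11.0 and 12.2 against 16.5 and 14.8. Its H3K27ac was 4.68 and 5.92 at E11.5, near the upstream starts, and 7.47, 13.4 and 14.7 at E17.5. Exon sequence of Gm49614 lies within the 300 bases upstream of the start at chr16:91019435, and its part in these peaks was not tested. The H3K27me3 promoter peak of Olig2 was the widest of the members in each of the 5 wild type lists. It was 37112 and 29553 bp wide at E11.5 and 29329 to 45508 bp at E17.5. All H3K27me3 peaks together covered 80.0% to 94.9% of the gene and its 20 kb flanks at E11.5 and 87.8% to 98.7% at E17.5.

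At Sox10, H3K27me3 fell in fold enrichment from 16.7 and 14.3 to 10.7, 8.68 and 8.75, while its peaks widened from 4684 and 4683 bp to 9500, 8423 and 9436 bp. H3K4me3 had no promoter peak at E11.5, then 4.33, 7.14 and 5.04 at E17.5. H3K27ac was 8.38, 5.85 and 8.10 at E17.5. The 3 marks were thus called together at E17.5, when Sox10 RNA was measurable in every library.

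Nkx6-2 showed the reverse for H3K4me3, with 22.6 and 16.99 at E11.5, then 5.03, 5.01 and 5.98 at E17.5. Its H3K4me3 peaks narrowed from 3367 and 3545 bp to 864, 1119 and 420 bp. H3K27me3 was also lower, at 12.3, 12.8 and 12.9 against 20.9 and 17.7, and H3K27me3 peaks covered 55.5% to 73.2% of the gene and its flanks against 38.9% and 43.1%. The E17.5 H3K27me3 lists were longer, with 27452 to 43700 peaks against 13850 and 19166, and the part of list length in this coverage and in the wider peak of Sox10 was not tested. H3K27ac was present in 1 of 2 lists at E11.5 and in none of 3 at E17.5.

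Pdgfra kept H3K4me3 (19.4 and 17.4, then 15.99, 18.2 and 15.5) and H3K27me3 (18.3 and 13.7, then 17.1, 13.2 and 13.8) at both stages, with overlapping values, and had H3K27ac of 8.38, 6.60 and 6.77 at E17.5 alone. Its strongest H3K4me3 peak did not lie at the canonical start, chr5:75312922, but inside the gene, from chr5:75316127 to 75317937 over all lists. The strongest CTCF promoter peak of any member covered the same place, from chr5:75316171 to 75318144, with a fold enrichment of 36.9, 42.3 and 48.9.

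CTCF, a factor that binds insulators and loop anchors, had a promoter peak in every E17.5 wild type list at Olig2, Sox10, Pdgfra and Mbp, 4 of 9 members against 38.4% of genes. The peaks of Olig2, Sox10 and Mbp were 2.43 to 7.49 in fold enrichment. Humanized lists gave the same 4 members, against 34.2% of genes.

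Cspg4 had weak marks at E11.5, H3K4me3 of 4.98 and 7.68 and H3K27me3 of 3.79 and 3.60. At E17.5 its H3K27me3 was higher, at 7.60, 6.08 and 6.25, and H3K27ac was 4.41, 9.998 and 9.26. Within the gene and its 20 kb flanks no H3K27ac peak was called in either E11.5 list, against 12, 11 and 10 peaks covering 10.6% to 14.9% of the region at E17.5.

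For Bcas1 the position of the marks mattered. Its canonical start, chr2:170269765, met no peak of any mark in any wild type list. The other coding start, chr2:170248429, inside the gene, was met by peaks with H3K27ac of 6.58 and 6.00 at E11.5, then 8.90, 14.6 and 14.6 at E17.5, and H3K4me3 of 7.05 and 4.78 and then 4.42, 7.29 and 6.72. H3K27me3 was called there in 1 of the 3 E17.5 lists only. Exon sequence of another gene, Bcas1os1, lies within the 300 bases upstream of this start. Which gene the peaks belong to was not tested.

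Mbp had the same kind of split. The upstream start of golli transcripts, chr18:82493207, had the strongest H3K4me3 of the members, 41.4 and 42.8 at E11.5, then 50.8, 58.6 and 43.0 at E17.5. Exon sequence of Gm58827 lies within the 300 bases upstream of that start, and its part in these peaks was not tested. The canonical myelin start, chr18:82572615, met no peak of H3K27ac, H3K4me3, H3K27me3 or CTCF in any wild type list at either stage. H3K27ac at E17.5 was 13.4, 14.1 and 14.5, in a peak between these, near the start at chr18:82527018, whereas the strongest E11.5 peak (5.52 and 5.14) lay at the upstream start. Mog had no promoter peak in any wild type or humanized list.

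Across all genes with an H3K27ac promoter peak in every wild type list, the E17.5 mean fold enrichment was a median of 2.04 times the E11.5 mean. Every E17.5 list was above every E11.5 list at 78.2% of 10447 such genes and below at 3.03%, and the ratio of 2.02 at Bcas1 lies near this general shift. At Olig2 and Mbp the strongest H3K27ac peaks of the stages lay at different places, so no ratio is given for them. For H3K4me3 the median ratio was 1.14, with 34.7% of 13898 genes higher and 7.06% lower. Olig1 (2.29) and Mbp (1.21) were higher in every list, and Olig2 (0.599) and Nkx6-2 (0.270) lower. For H3K27me3 it was 0.853, with 20.8% of 3758 genes higher and 45.5% lower. Olig1, Olig2, Sox10, Nkx6-2 and Mbp were lower in every list, with ratios of 0.607 to 0.855, Cspg4 was higher (1.80) and Pdgfra overlapped. With 2 lists against 3, no exact test can reach p = 0.05, so these are descriptions.

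Humanized lists differed little in which members were marked. At E11.5, H3K27ac was in every list for 4 members (50.5% of genes), Nkx6-2 being added, H3K4me3 for 6 (65.5%), without Bcas1, and H3K27me3 for the same 7 (23.6%). At E17.5 the counts were 6 for H3K27ac (56.2%), without Cspg4, 7 for H3K4me3 (65.3%), without Bcas1, and the same 7 for H3K27me3 (20%). Each of these changes came from a peak that was missing from 1 list, and no difference between genotypes was tested.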

How the data were processed

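RNA-seq and ChIP-seq were made from diencephalon of wild type and hs754-humanized embryos at E11.5 and E17.5. Of 76 samples, 52 were analysed, 16 RNA libraries and 36 peak lists, and the 24 input samples were not used here. Samples were grouped by genotype and stage from their labels. RNA was polyA selected and sequenced as paired reads. The authors aligned it to mm39 with STAR 2.7.9a and the basic annotation of GENCODE release 31 and deposited the read count of each gene without strand (used here) and for each strand. Reads not counted on any gene, 48.1% to 58.4% per library, were left out. These include unmapped reads, which were 36.3% to 44.9% of the reads of a library. A read that overlaps several genes is not counted, and reads of both strands are pooled in the count used.

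For ChIP-seq, the authors aligned reads with Bowtie2 2.4.2 to mm39, or to mm39 carrying the human sequence for humanized samples, discarded duplicates and reads mapping to several places, and ran MACS2 2.2.7.1 on the replicates separately. The deposited lists give the fold enrichment (a ratio over local background) and the -log10 of the q-value of each peak. H3K27me3 lists have the form of broad peaks, and their calling mode is not given in the sources used here. Read depths of the ChIP libraries are unknown, so peak values carry no interval. The sources give 2 catalogue numbers for the H3K27ac antibody. Versions are from the submitters' processing notes.

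Counts were filtered with filterByExpr, scaled by TMM and tested with edgeR 4.0.16 (limma 3.58.1, R 4.3.3) on the 8 libraries of each comparison, or all 16 for the interaction of genotype and stage, with Benjamini-Hochberg adjusted p under 0.05 called. Precision per gene is set by its counts, and intervals cover the spread between libraries, each a pool of a litter. Alternatives were DESeq2 1.42.0 (the tool of the study), its size factors, no filter, the strand column, all 16 libraries in the fit, a block for the replicate number, and leave-one-out fits. Peaks were compared in Python 3.11.15 with pandas 2.3.3 and numpy 2.4.6, for promoters of 1000 bp on either side of coding transcript starts in GENCODE release M39 on GRCm39, the same assembly as mm39. Alternatives were windows of 2500 or 500 bp, a -log10 q of at least 5, the 5′ end of the gene alone, 50% overlap and leaving out each list. An equal number of peaks per list was added after the data were seen. Scripts were tested on simulated data. Likeness to Sox10 used log2(CPM + 1) of protein-coding genes with a mean of at least 1 CPM. Figures used matplotlib 3.10.9.

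The members and all gene lists were chosen with earlier results of these data known. Named from each wider list were up to 5 genes called higher and up to 5 called lower in wild type by the lowest adjusted p (1 of them is not reported here), and Neu4, Mobp, Opalin and the marker genes at 0 were named after their values were seen. Deviations from group means of same-numbered wild type and humanized libraries had correlations of 0.601, 0.679, 0.129 and 0.322 at E17.5. At E11.5 they were 0.0583, 0.237, 0.0351 and 0.121, so E17.5 replicate 3 lay within the E11.5 range. Between stages, same-numbered libraries of the same genotype had correlations from -0.653 to 0.501. The labels do not say what a number shares.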

Additional observations from a re-analysis of the deposited data

Results flagged for a closer look

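Among 36 groups of 4 libraries (9 members, 4 groups), 3 held a library whose gap to the next exceeded Dixon's 95% critical value, where chance alone flags about 1 group in 20. Sox10 at E11.5 was 1.01 CPM in wild type replicate 2 against 0.162 CPM in the next library, and 0.776 CPM in humanized replicate 3 against 0.243 CPM. These rest on 19 and 15 counts. Mbp at E17.5 was 76.8 CPM in wild type replicate 1 against 43.7 CPM in the next library, and the same library had the highest Olig1, Olig2, Sox10, Nkx6-2, Cspg4 and Bcas1 of the 8 E17.5 libraries.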

How the results depend on the processing

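The count of called members stayed within 1.5 times of the reported one under every alternative run: 6 to 9 in wild type and 7 to 9 in humanized samples when 1 library was left out. In those leave-one-out fits, the number of all genes called ran from 9147 to 13990 in wild type and from 14220 to 15100 in humanized samples. Mog could not be tested on its own strand. The genes called between genotypes were 2 at E11.5 and 1 at E17.5 with DESeq2, and 1 at E11.5 with all 16 libraries in the fit, against 0. With the replicate number as a block, 9466 genes were called between stages in wild type and 14454 in humanized samples, and the counts of members called did not change. Member promoters with H3K4me3 at E17.5 were 5 rather than 8 at the 5′ end of the gene alone. Those with CTCF were 2 rather than 4 at a -log10 q of at least 5, and 1 at the 5′ end alone. The shares of all genes under these settings are not given here. The shares of 65.4% for H3K4me3 and 38.4% for CTCF belong to the main setting and cannot be set against these counts. At a -log10 q of at least 5, the H3K27me3 peaks of Mbp were lost at both stages, and that of Cspg4 in E11.5 wild type replicate 2 (4.18) was lost.

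Signs of uncalled differences between genotypes were unstable. At E11.5, leaving out 1 library gave -0.23 to 0.60 for Olig1 (-0.026 on the strand column), -0.29 to 0.15 for Olig2, -0.0979 to 0.0403 for Pdgfra (0.0145 with all 16 libraries), -0.0782 to 0.120 for Cspg4 and -0.192 to 0.0476 for Bcas1. At E17.5 it gave -0.0782 to 0.0796 for Pdgfra (-0.0207 without a filter), -0.54 to 0.10 for Cspg4, -0.380 to 0.00979 for Mbp and -0.0570 to 0.355 for Mog. The cause was not tested. Depth limits Sox10 at E11.5, Nkx6-2 at E17.5 and Mog on its own strand.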

Other observations

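Beside the lineage genes, markers of other cell types were read between the stages in wild type. Their counts are to be set against the 29% of all genes tested that were called higher and the 26.7% called lower. Of 9 astrocyte markers, 7 were called higher at E17.5, with a median change of 4.2, and of 9 neuron markers 8 were called higher, with a median of 2.01. Of 9 radial glia and neuroepithelium markers, 7 were called lower and 2 higher, with a median of -2.08. The 8 microglia markers had 1 called higher, 1 lower and 6 not called, and summed to 95.7 CPM in E17.5 wild type replicate 1 against 41.8, 45.5 and 45.6 CPM in replicates 2 to 4. Of 10 diencephalon markers, 3 were called higher and 3 lower, shares near those of all genes. None of these markers was at 0 in any group. The 10 markers of neighbouring telencephalon, midbrain and hindbrain summed to 13 to 26.3 CPM at E11.5 and 51.5 to 86.9 CPM at E17.5 in wild type, with 2 called higher and 1 lower of 7 tested.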
